A study of Mus musculus with 6 samples.

Results

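The genes of the collagen chains were described in whole hearts of mice with an EphB4 mutation and of wild-type mice. Members were all genes whose symbol in the platform annotation is Col, a number, a and a number, read at probe sets that name that gene alone, with the brightest probe set over the 6 arrays standing for the gene. This gave 42 genes of 18193 on the array, on 82 probe sets. The tested hearts were 3 EphB4 mutant hearts, and their controls were 3 wild-type hearts, all of the strain given as C57B6. Ephb4 itself read 8.14, 7.93 and 8.06 in mutant hearts and 7.83, 8.20 and 8.06 in wild-type hearts, so that its level did not separate the genotypes. Each array was taken as 1 animal, since the design text counts 6 mice. The kind of mutation, the age and sex of the mice and the cells in which the mutation acts are not stated in the labels. Sample descriptions began with eM for mutant 3 and wild-type 3, and with eI for mutants 1 and 2 and wild-types 1 and 2. The meaning of the letters was not stated, so the hearts are named by them.

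Collagens are extracellular proteins built from 3 chains wound into a triple helix, and each chain has a gene of its own. Fibrillar chains (types I, II, III, V and XI) form the load-bearing fibres, type IV forms the network of basement membranes, type VI forms beaded filaments around cells, and fibril-associated chains decorate the surface of fibres. In the developing heart, mesenchyme of the cushions and valves, the epicardium with its derivatives and the endothelium are known sources of collagen, and EPHB4, a receptor tyrosine kinase, is best known from endothelium.

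Values are log2 intensities, so a difference of 1 is a doubling of the signal, and they can be compared for a chain between hearts but not between chains. Array medians lay between 5.89 and 6.01. Probe sets in the lowest 40% by mean (below 5.38) were not tested, which left 36 of the 42 chains among 13572 genes. The eM hearts stood apart from the eI hearts: the first principal component, with 60.4% of the variance, placed mutant 3 at 52.6 and wild-type 3 at 34.1, and the eI hearts between -24.3 and -17.95. As a sign of RNA quality, beta-actin controls read higher at the 3-prime than at the 5-prime end by 0.77 in mutant 3 and 0.51 in wild-type 3, and 0.28 to 0.41 in the eI hearts. Xist, the RNA of the inactive X chromosome, read 6.73 and 6.78 in mutants 1 and 3, 11.75 in mutant 2 and 11.51 to 12.33 in the wild-type hearts, so that sex was unevenly spread over the genotypes. The 10 heart muscle markers, such as Myh6 and Actc1, had a mean of 13.17 to 13.28 in the mutant hearts and 13.13 to 13.30 in the wild-type hearts.  Precision was limited by 3 arrays per genotype and by 2 eM arrays.

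Mutant hearts were first compared with wild-type hearts. No collagen chain was called between the genotypes, and the levels of the 2 genotypes overlapped at every tested chain. In limma, 0 of 36 chains passed an adjusted p of 0.05 (each adjusted p = 0.9997), as did 0.0% of all genes tested. At an unadjusted p under 0.05 there were 0 chains, beside 0.936% of all genes. Genotypes were without overlap at 0 of 36 chains, beside 4.39% of all genes. The median mutant minus wild-type difference of the chains was -0.04 log2, with 16 chains above 0 and 20 below (55.6%, beside 48.9% of all genes), and that of all genes was 0.00. This lean turned with array weights (25 above and 11 below, median 0.04), with Xist as a covariate (22 and 14, median 0.06) and without mutant 3 (22 and 14, median 0.03). With the letters as a block, 0 chains had an adjusted or an unadjusted p under 0.05, beside 0.0% and 3.07% of all genes. These values do not show that the chains were equal, since the 95% interval of single chains spanned from -0.20 to 0.22 for Col4a6 and from -1.80 to 1.96 for Col2a1.

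**Figure D1:**
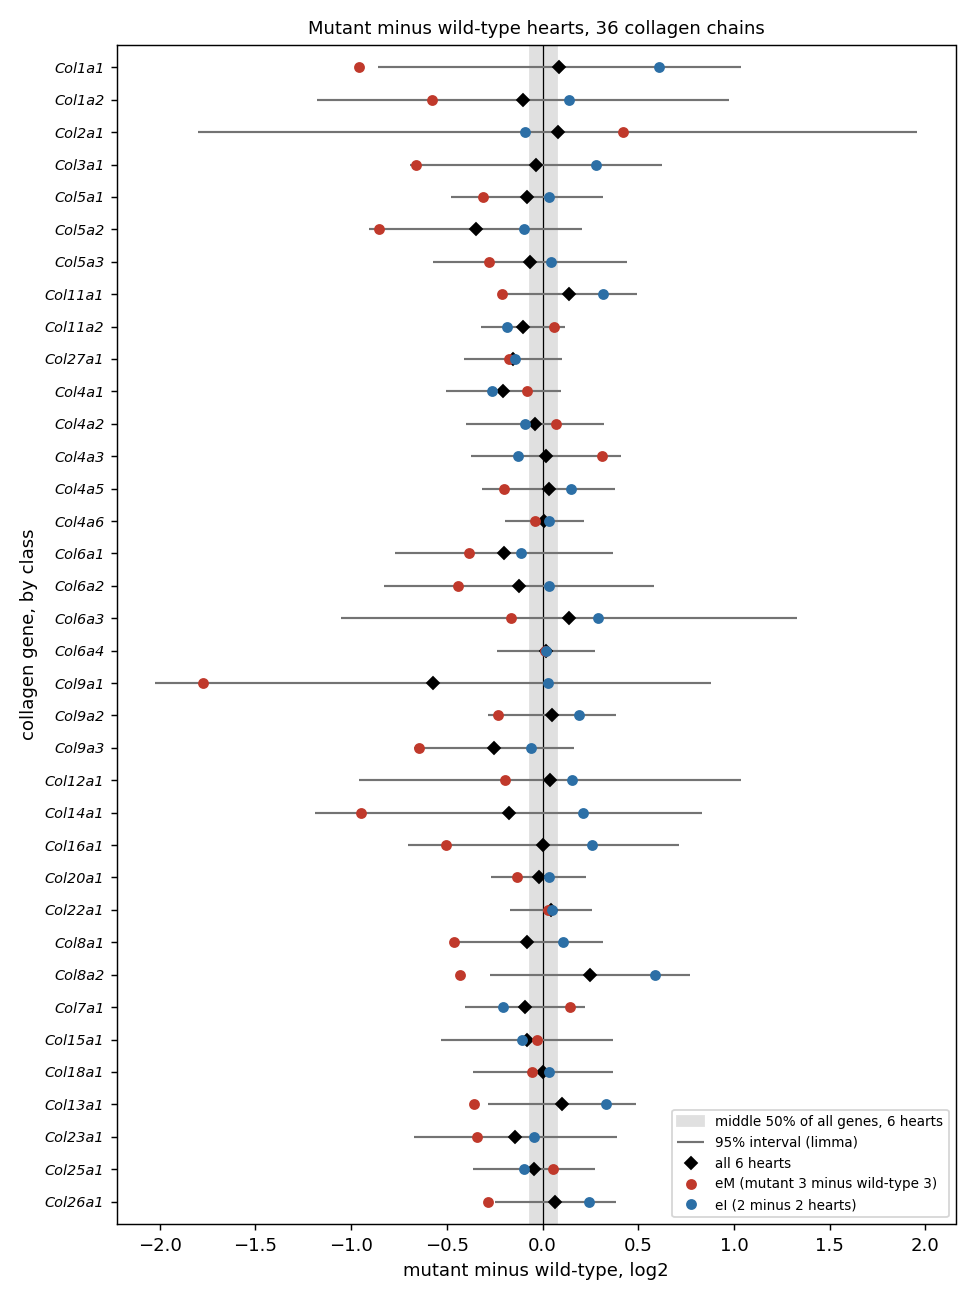
Mutant minus wild-type difference (x axis, log2) of the 36 tested collagen chains (y axis, grouped by class). Black diamonds are all 6 hearts with the 95% limma interval as a grey line, red points are mutant 3 minus wild-type 3 (eM), blue points the 2 mutant minus the 2 wild-type eI hearts, and the grey band holds the middle 50% of all genes over 6 hearts. Every interval crosses 0, and at Col9a1, Col1a1, Col14a1 and Col5a2 the red point lies far left of the blue one.

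Among the fibrillar chains, Col5a2, which sets fibre width together with Col5a1, had the largest difference. It read 11.60, 11.68 and 10.80 in mutant hearts 1, 2 and 3, and 11.70, 11.76 and 11.65 in the wild-type hearts. Mutant 3 was far below the others, mutant 1 just below the wild-type range and mutant 2 within it. The difference was -0.35 (95% interval -0.91 to 0.21), made of -0.10 within eI and -0.85 within eM. Col27a1, a fibrillar chain of cartilage, differed by -0.15 (-0.41 to 0.10), with -0.14 within eI and -0.17 within eM. Its second probe set, also above the filter, gave 0.05, with 0.07 within eI and 0.001 within eM. The chains of type I, the main collagen of scars and tendons, differed little over all hearts. Col1a1 read 10.32, 9.84 and 8.64 in the mutant hearts and 9.48, 9.46 and 9.60 in the wild-type hearts. The mutant values lay on either side of a narrow wild-type range, with means of 9.60 ± 0.87 in mutant and 9.51 ± 0.07 in wild-type hearts (SD, n = 3 each).

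Basement membrane chains were measured at 6 genes, 5 of them tested. Col4a1 and Col4a2, which pair in the most widespread type IV molecule, are read away from each other from a common start region. The 250 bases before to 50 after each start, from RefSeq on GRCm38.p6, are shown because the windows overlap by 78 bases, given in capitals.
Col4a1 (chr8:11312777-11313076, minus strand): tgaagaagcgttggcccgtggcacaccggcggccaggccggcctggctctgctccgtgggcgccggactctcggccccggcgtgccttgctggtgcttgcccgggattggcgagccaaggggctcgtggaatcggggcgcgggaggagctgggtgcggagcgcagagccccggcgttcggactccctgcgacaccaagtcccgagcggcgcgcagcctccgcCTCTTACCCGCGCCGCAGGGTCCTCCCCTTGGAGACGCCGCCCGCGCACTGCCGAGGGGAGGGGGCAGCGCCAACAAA
Col4a2 (chr8:11312555-11312854, plus strand): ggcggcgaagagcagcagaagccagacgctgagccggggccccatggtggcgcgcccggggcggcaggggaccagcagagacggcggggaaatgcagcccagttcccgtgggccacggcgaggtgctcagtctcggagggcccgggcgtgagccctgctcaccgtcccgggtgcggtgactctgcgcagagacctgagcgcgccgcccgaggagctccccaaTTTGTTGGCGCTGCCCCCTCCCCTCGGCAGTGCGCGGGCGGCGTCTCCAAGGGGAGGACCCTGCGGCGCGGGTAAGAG
The shared bases held 1 GGGCGG, counting both strands, and no CCAAT. Of 32851 such windows, 10.8% overlapped a window of another gene on the opposite strand, and of the 36 windows of 33 member genes these 2 did. Col4a1 read 12.003, 12.02 and 12.34 in the mutant hearts, against 12.35, 12.21 and 12.43 in the wild-type hearts. Mutants 1 and 2 were the lowest of the 6, and mutant 3 lay inside the wild-type range. Its difference was -0.20 (-0.51 to 0.10), with -0.27 within eI and -0.08 within eM. A second probe set of Col4a1, also above the filter, gave -0.08, with -0.07 within eI and -0.11 within eM. Col4a2 read 10.97, 11.02 and 11.41 in the mutant hearts and 11.16, 11.02 and 11.33 in the wild-type hearts, a difference of -0.04. The X-linked Col4a5 and Col4a6 differed by 0.03 and 0.01, and Col4a3, of the kidney-type network, by 0.02.

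Of the other classes, the largest differences lay at fibril-associated chains. Col9a1, a chain of the cartilage collagen type IX, read 9.47, 9.12 and 7.04 in the mutant hearts, against 9.15, 9.38 and 8.81 in the wild-type hearts. Mutant 3 was lowest by far, and the other mutants were within or just above the wild-type range. The difference of -0.57 (-2.02 to 0.88) was 0.03 within eI and -1.78 within eM, and it was 0.18 without mutant 3. A second probe set of Col9a1 above the filter gave -0.39, with -0.26 within eI and -0.63 within eM. Its partner Col9a3 differed by -0.25 (-0.67 to 0.17), with -0.06 and -0.64 within eI and eM. Col14a1, a fibril-associated chain of mature connective tissue, differed by -0.18, with 0.21 within eI and -0.95 within eM, and by 0.34 without mutant 3. Col6a1, a chain of type VI, differed by -0.20, and by 0.02 without mutant 3. Col8a2, a chain of the short network collagen type VIII, was the only one of the 8 largest differences above 0. It read 6.94, 6.71 and 6.14 in the mutant hearts and 6.22, 6.26 and 6.57 in the wild-type hearts, a difference of 0.25 with 0.59 within eI and -0.43 within eM. Two-sided exact permutation p of these 8 chains was 0.2 to 1.0, where 3 against 3 allows no less than 0.1.

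The genotype difference was then set out within each kind of heart. In the eI hearts, 23 of 36 chains (63.9%, beside 52.9% of all genes) were higher in the mutants, with a median of 0.03. In the eM pair 28 of 36 (77.8%, beside 51.4% of all genes) were lower in the mutant, with a median of -0.22. All genes had medians of 0.01 in eI and -0.01 in eM. Within eI, limma called 0 chains (smallest adjusted p = 0.9398) and 0.0% of all genes. At an unadjusted p under 0.05 it had 7 chains of 36 (19.4%), beside 4.82% of all genes. Of these, 6 were higher in the mutants, beside 2.82% of all genes: Col8a2 (0.59), Col1a1 (0.61), Col13a1 (0.33), Col11a1 (0.31), Col16a1 (0.26) and Col26a1 (0.24). Col4a1 (-0.27) was lower, beside 2.0% of all genes. Second probe sets above the filter gave 0.615 for Col1a1, 0.55 for Col11a1 and -0.07 for Col4a1. In the eM pair, with 1 heart per genotype and no test, mutant 3 was at least 1.5-fold lower than wild-type 3 at 6 chains, Col1a1, Col3a1, Col5a2, Col9a1, Col9a3 and Col14a1, or 16.7%, beside 1.97% of all genes. It was at least 1.5-fold higher at 0 chains, beside 0.427% of all genes.

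Whether the mutant difference itself differed between the letters was tested with an interaction term. It passed the adjusted threshold at 0 of 36 chains (smallest adjusted p = 0.621, for Col9a1) and at 0.0% of all genes. At an unadjusted p under 0.05 there were 12 chains (33.3%), beside 7.12% of all genes, and 11 of them had a lower mutant difference in eM, beside 4.9% of all genes. The effect in eM minus that in eI was -1.81 ± 0.28 (SE) for Col9a1, -1.57 ± 0.31 for Col1a1, -1.16 ± 0.20 for Col14a1, -1.02 ± 0.19 for Col8a2, -0.94 ± 0.20 for Col3a1, -0.77 ± 0.15 for Col16a1 and -0.76 ± 0.15 for Col5a2 (limma, adjusted p from 0.621 to 0.6763). The other 4 lower ones, Col13a1, Col9a3, Col11a1 and Col26a1, lay between -0.69 and -0.53, and Col4a3 was the 1 higher chain (0.44), beside 2.22% of all genes. For the type IV chains Col4a1 and Col4a2 it was 0.18 and 0.17. At a second probe set of Col9a1 above the filter, the mutant differences lay much closer together, at -0.26 in eI and -0.63 in eM. Second probe sets above the filter gave 0.615 and -0.92 for Col1a1, 0.33 and -0.88 for Col3a1 and 0.10 and -1.08 for Col5a2. They gave 0.22 and -1.05 for Col9a3 and 0.55 and -0.30 for Col11a1. At any p, 28 chains (77.8%) were below 0, beside 52.7% of all genes. The median over the 36 chains was -0.35, and over all genes -0.02. The eM side of each of these values is mutant 3 against wild-type 3 alone, and the spread comes from the eI hearts. The 12 fibroblast and mesenchyme markers had a median mutant difference of 0.12 in eI and -0.40 in eM, none of them called, and a mean of 8.82 in mutant 3, the lowest of the hearts (9.31 to 9.88 in the others). The 8 epicardial markers had medians of 0.52 in eI and 0.01 in eM, and the 6 tested liver markers -0.92 in eI and -0.29 in eM. Over the 7 liver genes measured, the mean was 6.49 and 6.62 in mutants 1 and 2, and 6.51 and 7.98 in wild-types 1 and 2. Among the eI hearts, wild-type 2 thus stood apart in the liver markers. The part of these cells and of the RNA quality of mutant 3 in the result was not tested. Xist read 6.78 in mutant 3 and 12.33 in wild-type 3, so sex and genotype cannot be told apart in the eM pair. In whole hearts, fewer cells of a type and less RNA per cell cannot be told apart.

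**Figure D2:**
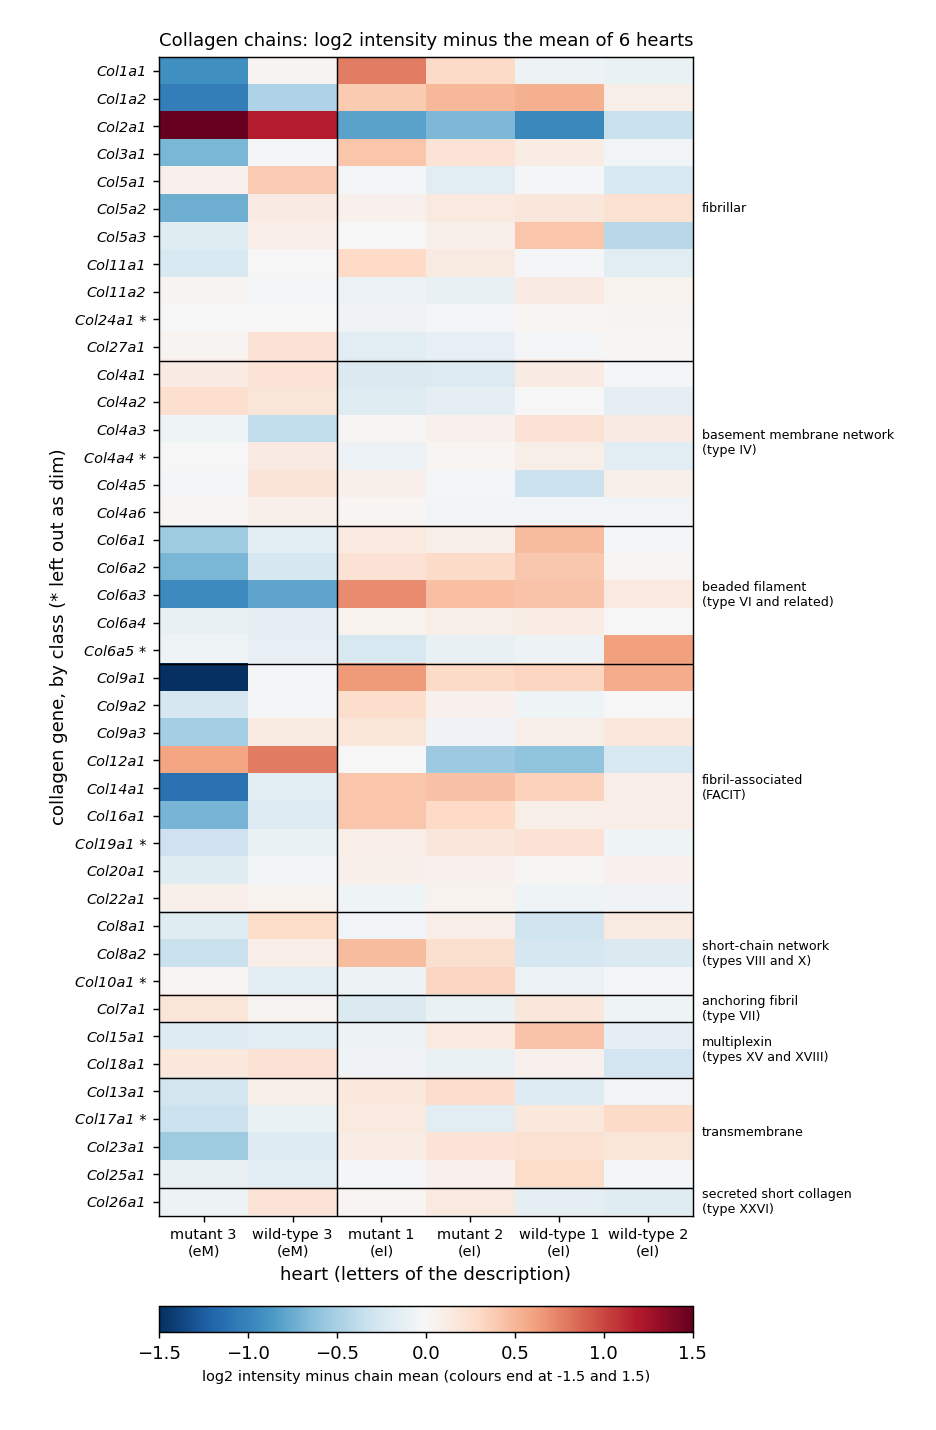
Log2 intensity of all 42 collagen chains (rows, by class) in the 6 hearts (columns, eM left of eI), minus the chain's mean over the 6 hearts; red is above and blue below it, and an asterisk marks the 6 chains left out of tests as dim. The eM columns are red at Col2a1 and Col12a1 and blue at Col1a2, type VI and several fibril-associated chains, mostly more so in mutant 3. Of the 2 eM columns, Col1a1 is blue in mutant 3 alone.

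The hearts were next compared by the letters of their descriptions, eM against eI, with genotype as a term. Of the 36 chains, 2 rose and 4 fell in eM hearts at an adjusted p under 0.05 in limma. This is 16.7% of the chains, beside 10.3% of all genes, with 5.56% rising beside 4.47% and 11.1% falling beside 5.82%. The median eM minus eI difference was -0.18 over the chains and -0.03 over all genes, with 14 chains higher and 22 lower (61.1%, beside 55.2% of all genes). At an unadjusted p under 0.05 there were 17 chains (47.2%, beside 30.4%). By size alone, 7 chains were at least 1.5-fold lower in eM (19.4%, beside 4.54%) and 2 at least 1.5-fold higher (5.56%, beside 2.91%). Groups were without overlap at 7 chains with eM higher (19.4%, beside 20.8% of all genes) and at 13 with eM lower (36.1%, beside 23.8%). Leaving out mutant 2 or mutant 3 left 0 of the 6 calls, each with its direction kept.

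Col2a1, the chain of type II, the main collagen of cartilage that is also made in forming heart valves, rose most. It read 11.001 in mutant 3 and 10.58 in wild-type 3, and in the eI hearts 8.60 and 8.72 in mutants and 8.43 and 9.07 in wild-types. Both eM hearts stood at least 1.51 above every eI heart. The difference was 2.09 ± 0.20 (SE, limma adjusted p = 0.0131), or 4.25-fold, with 2.34 within mutant and 1.83 within wild-type hearts. Of 11 genes of cartilage and its precursors measured and 7 tested, 2 rose and 2 fell, beside 4.47% and 5.82% of all genes. Sox9, a transcription factor of cartilage and valve mesenchyme known to act on Col2a1, differed by 0.72, and Hapln1, which links hyaluronan to proteoglycan, by 1.11. Comp and Matn4, other cartilage matrix genes, differed by -1.14 and -0.78. Matn1, Cnmd, Epyc and Snorc were among the dim genes left untested, and the mean of the list was 5.896 and 6.09 in eM hearts and 5.95 to 6.14 in eI hearts. The part of cartilage-forming cells in the result was not tested.

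Of the other fibrillar chains, Col1a2 alone passed, and it fell. Col1a2, the alpha 2 chain of type I, read 10.51 in mutant 3 and 11.08 in wild-type 3, against 11.94 and 12.04 in eI mutants and 12.08 and 11.63 in eI wild-types. The groups did not overlap, and mutant 3 was the lower of the eM hearts. The difference was -1.12 ± 0.20 (adjusted p = 0.02716), with -1.48 within mutants and -0.77 within wild-types, and a second bright probe set of the gene gave -1.19. Its call also ended without mutant 1 and with Xist as a covariate (-1.07, adjusted p = 0.07021). The start region of Col1a2 is shown as that of the called type I chain, with CCAAT and GGGCGG on either strand in capitals.
Col1a2 (chr6:4505368-4505667, plus strand): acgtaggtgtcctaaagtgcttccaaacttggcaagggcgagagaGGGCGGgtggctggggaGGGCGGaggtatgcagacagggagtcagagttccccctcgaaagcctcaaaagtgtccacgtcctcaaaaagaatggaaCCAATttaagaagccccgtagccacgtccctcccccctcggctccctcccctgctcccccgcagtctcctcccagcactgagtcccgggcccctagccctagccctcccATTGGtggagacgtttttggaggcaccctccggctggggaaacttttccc
It held 2 of each, and no TATAAA. Among all windows, 37.4% held CCAAT, 35.7% GGGCGG and 13.6% TATAAA, and among the 36 of the members 36.1%, 61.1% and 13.9%.

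Its partner Col1a1 did not pass. The difference was -0.66 ± 0.35 (adjusted p = 0.2564), but wild-type 3 (9.60) lay within the eI range of 9.46 to 10.32, and without mutant 3 the difference was 0.13. Col3a1, the chain of the thin fibres of soft tissue, read 12.02 in mutant 3 and 12.67 in wild-type 3, against 12.66 to 13.11 in the eI hearts. Only mutant 3 was clearly below the eI range, and the difference was -0.53 ± 0.21 (adjusted p = 0.1594). The partners of type V lay on opposite sides, Col5a1 at 0.33 ± 0.12 (adjusted p = 0.1253) with eM above all eI hearts, and Col5a2 at -0.46 ± 0.17 (adjusted p = 0.1346). Col11a1 and Col11a2, of the thin cartilage fibres, lay at -0.18 and 0.01. A second probe set of Col11a1 gave 0.45.

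**Figure D3:**
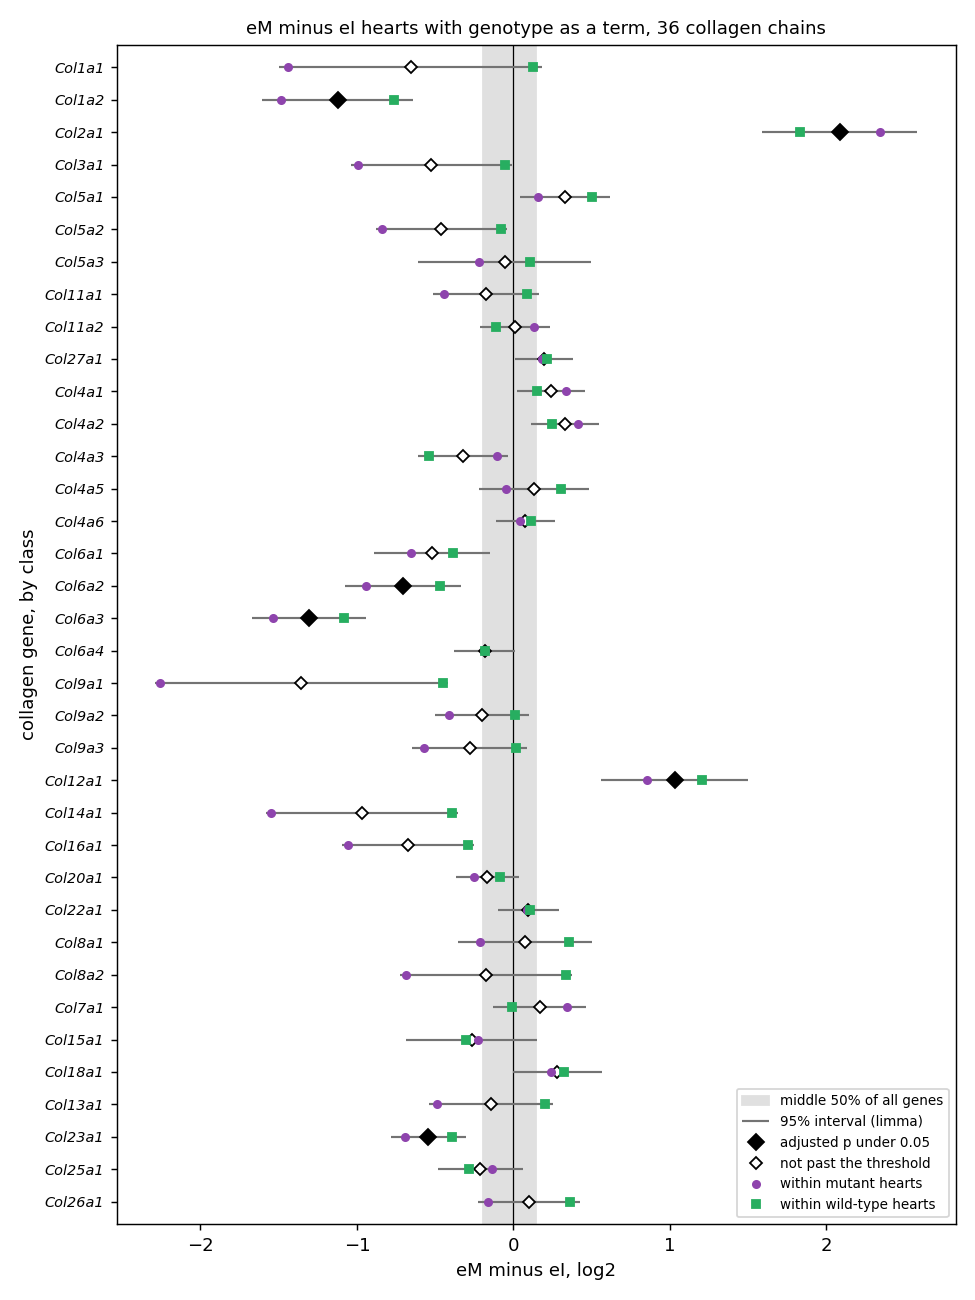
eM minus eI difference with genotype as a term (x axis, log2) of the 36 tested chains (y axis, by class), with 95% limma intervals; filled diamonds passed an adjusted p of 0.05. Purple points are the difference within mutant hearts, green squares within wild-type hearts, and the grey band holds the middle 50% of all genes. Col2a1 (2.09) and Col12a1 (1.03) lie far right, and Col6a3 (-1.31), Col1a2 (-1.12), Col6a2 (-0.70) and Col23a1 (-0.54) are the filled points on the left.

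The chains of type VI were lower in eM hearts at 4 of 4 tested genes, beside 55.2% of all genes. Of these, 2 passed, where 5.82% of all genes fell past the threshold. Type VI molecules join 1 each of the chains of Col6a1, Col6a2 and Col6a3. Col6a3 read 6.17 in mutant 3 and 6.34 in wild-type 3, against 7.83 and 7.58 in eI mutants and 7.56 and 7.28 in eI wild-types. The gap between the groups was 0.94, and the difference was -1.31 ± 0.15 (adjusted p = 0.01365), or 2.48-fold lower. Col6a2 read 9.42 and 9.86 in eM hearts, against 10.14 to 10.51 in eI hearts, a difference of -0.70 ± 0.15 (adjusted p = 0.04063). Its call ended without any heart other than wild-type 2, with no filter, and with Xist as a covariate. Col6a1 read 8.16 and 8.54 against 8.68 to 9.18, without overlap, a difference of -0.52 ± 0.15 that did not pass (adjusted p = 0.08245). The related Col6a4 differed by -0.18.

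Of the fibril-associated chains, Col12a1 rose and several others were lower without passing. Col12a1, whose product sits on type I fibres in tendon and other stressed tissue, read 6.98 in mutant 3 and 7.18 in wild-type 3, against 5.79 to 6.41 in the eI hearts. The difference was 1.03 ± 0.19 (adjusted p = 0.03068), or 2.04-fold, at its brightest probe set. Another probe set of the gene above the filter gave 0.03 and 2 dim ones -0.45 and -0.14, so that the mean of its probe sets gave 0.12 and no call. The call also ended without wild-type 3 and with Xist as a covariate. Col9a1 read 7.04 in mutant 3 and 8.81 in wild-type 3, against 9.12 to 9.47 in the eI hearts. Both eM hearts were below, but by very different amounts, and the difference of -1.35 ± 0.38 did not pass (adjusted p = 0.07646), though it did with array weights (-1.5005, adjusted p = 0.04764). Its second probe set gave -0.20. Col9a2 and Col9a3 differed by -0.20 and -0.28.

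Col14a1 read 5.89 and 6.84 in eM hearts, against 7.11 to 7.45 in eI hearts, a difference of -0.97 ± 0.25 (adjusted p = 0.06224). Col16a1, found with both basement membranes and fibres, read 7.17 and 7.68, against 7.96 to 8.29, a difference of -0.68 ± 0.17 (adjusted p = 0.06093). Both were without overlap, and both were lower in mutant 3 than in wild-type 3. Both passed the same threshold with the stricter filter, quantile normalization, the mean of a gene's probe sets, trended and robust variances, array weights or no genotype term (limma adjusted p of 0.02731 to 0.04945 for Col14a1 and 0.03521 to 0.04736 for Col16a1). Neither passed with no filter, centred arrays, the probe set of largest variance or Xist as a covariate (limma adjusted p of 0.05236 to 0.1331 for Col14a1). Over the hearts left out, the difference ran from -1.55 to -0.39 for Col14a1 and from -1.06 to -0.29 for Col16a1. It was nearest to no difference without mutant 3. Col22a1, a chain of tissue junctions, differed by 0.10 at its brightest probe set, but another one, which may bind more than 1 transcript by its name, gave 1.01 (6.40 and 6.61 in eM hearts, against 5.46 to 5.54 in eI hearts). A dim probe set below the filter gave 0.34 (5.35 and 5.36 in eM hearts, against 4.71 to 5.21 in eI hearts).

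**Figure D4:**
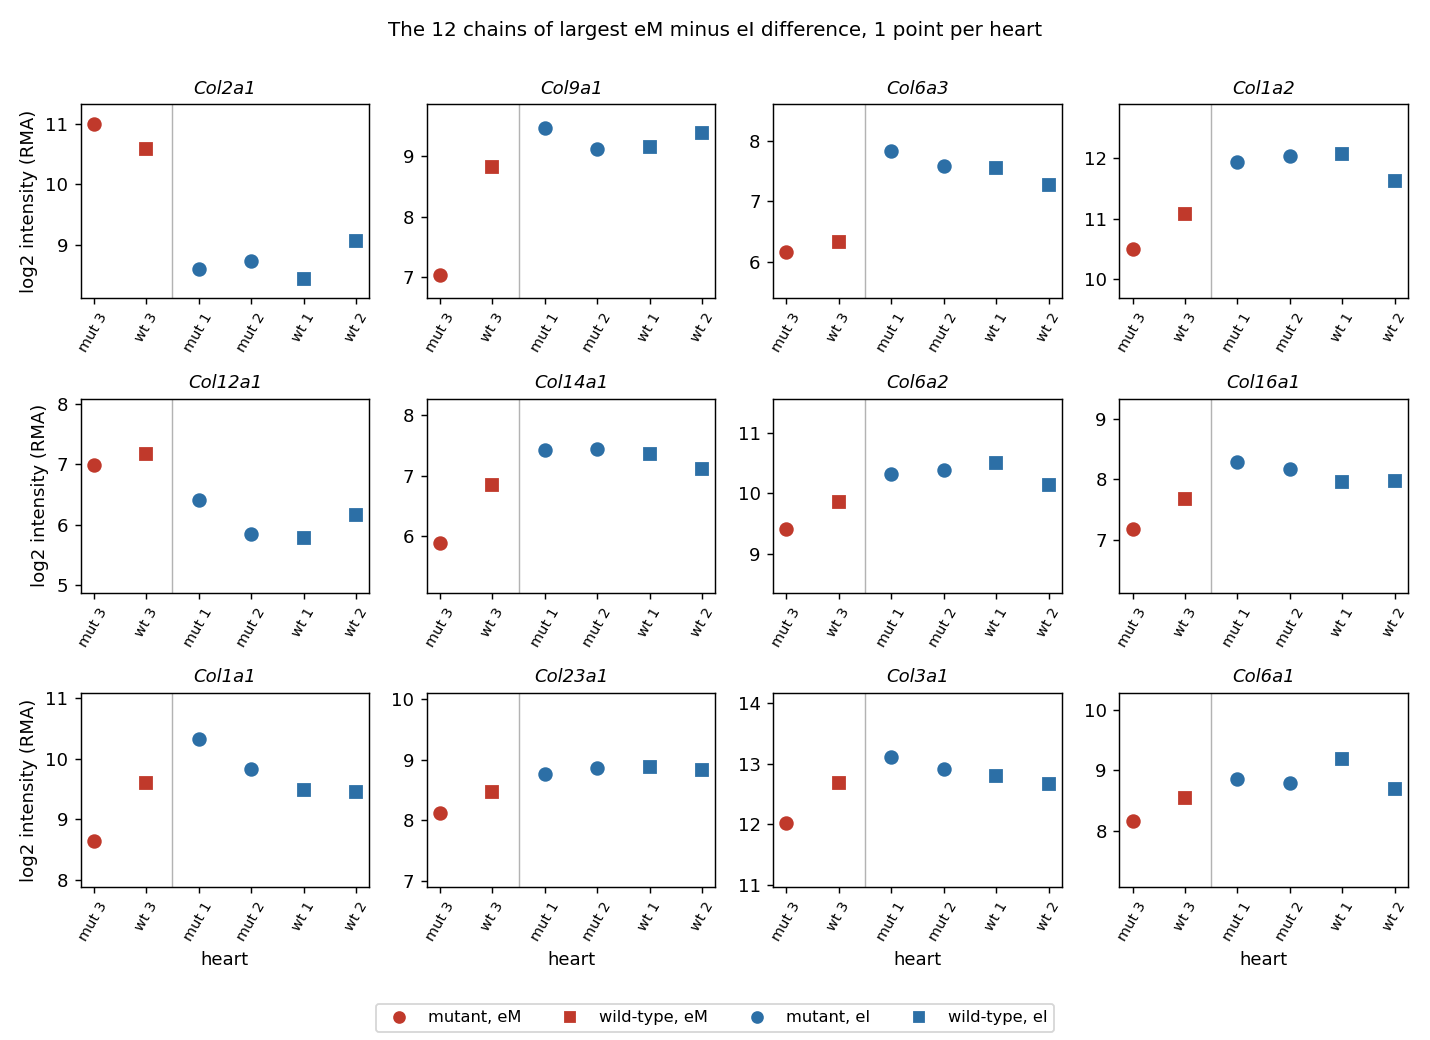
Log2 intensity (y axis, the same 3.2-unit span in each panel) of the 12 chains with the largest eM minus eI difference in each heart (x axis, eM left of the grey line). Red is eM and blue is eI, circles are mutant and squares wild-type hearts. At Col2a1, Col6a3 and Col12a1 both eM hearts stand apart together, whereas at Col9a1, Col1a1 and Col3a1 mutant 3 stands apart and wild-type 3 lies near the eI hearts.

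Of the 5 tested type IV chains, 4 were higher in eM hearts and 1 was lower, where 55.2% of all genes were lower, and none passed. Col4a2 read 11.41 in mutant 3 and 11.33 in wild-type 3, against 10.97 to 11.16 in the eI hearts, without overlap, a difference of 0.33 ± 0.09 (adjusted p = 0.06944). Col4a1, which shares the start region shown above, differed by 0.24 ± 0.09 (adjusted p = 0.1346). Col4a5 and Col4a6 differed by 0.13 and 0.08, and Col4a3 by -0.32. Of the multiplexins, basement membrane chains that release endostatin-like fragments, Col18a1 differed by 0.28 ± 0.12 (adjusted p = 0.1674) and Col15a1 by -0.27 ± 0.17 (adjusted p = 0.3436). The partners of type VIII, Col8a1 and Col8a2, differed by 0.07 and -0.18.

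Among the transmembrane chains, Col23a1 fell. It read 8.12 in mutant 3 and 8.46 in wild-type 3, against 8.77 to 8.88 in the eI hearts, which lay close together. The difference was -0.54 ± 0.10 (adjusted p = 0.029), or 1.46-fold lower. Its other probe sets gave -0.11 and 0.11, and the mean of its probe sets gave -0.18 with no call. The call also ended without mutant 1 and with Xist as a covariate. Col13a1 and Col25a1, of the same kind, differed by -0.14 and -0.21. Col7a1, of anchoring fibrils, and Col26a1 differed by 0.17 and 0.10.

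The 6 chains left untested were Col4a4, Col6a5, Col10a1, Col17a1, Col19a1 and Col24a1. Col19a1 and Col4a4, with means of 5.36 and 5.35, lay just below the filter, and Col5a3 and Col11a2, both at 5.41, just above it. None of the 6 was without overlap between genotypes, and Col19a1 alone was so between the letters, at 5.05 and 5.26 in eM hearts and 5.30 to 5.57 in eI hearts. Of the 27 chains with several probe sets, 20 had more than 1 above the filter. The sign of the eM minus eI difference was then shared except at Col11a1 and Col23a1. That of the mutant minus wild-type difference was not shared at Col1a2, Col4a5, Col5a1, Col18a1, Col22a1, Col25a1 and Col27a1.

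Markers of other cells were set beside the chains. Of all genes, 55.2% were lower in eM hearts, 4.47% rose past the threshold and 5.82% fell past it. Of 12 fibroblast and mesenchyme markers, 10 were lower in eM hearts with a median of -0.35, and 2 fell past the threshold: Lum, a proteoglycan of collagen fibres (-3.42), and Mfap5, of microfibrils (-1.52). Fn1, fibronectin, and Fbln1, of the same matrix, rose (0.56 and 0.55). The mean of the list was 8.82 and 9.31 in eM hearts, below the 9.62 to 9.88 of eI hearts. Smooth muscle and pericyte markers had a median of 0.19: 3 of 8 rose (Tagln 1.19, Rgs5 1.21, Cspg4 0.80), beside 4.47% of all genes, while Kcnj8 (-0.81), Pdgfrb (-0.59) and Cnn1 (-0.04) were below 0 and did not pass. Epicardial markers, with a median of 0.02, rose at 2 of 8 genes (Wt1 0.94, Tbx18 0.69), with Msln falling (-0.67). Leukocyte markers were lower at all 5 tested genes, erythroid markers at all 6 and liver markers at all 6, with medians of -0.71, -1.05 and -0.99. Endothelial markers had a median of -0.14, with 4 of 10 higher and 6 lower. Emcn fell (-1.18), while Pecam1 (0.41) and Flt1 (0.38) were above 0 and did not pass. Past the threshold, Csf1r (-1.64) and C1qa (-1.14) of leukocytes, Alas2 (-1.97), Hba-x (-1.10) and Slc4a1 (-1.94) of red cells and Afp of liver (-5.83) fell. Of 10 heart muscle markers, Myh6 (0.67) and Ryr2 (0.76) rose, the median was 0.00, and the list mean was 13.28 and 13.30 in eM hearts, above the 13.13 to 13.18 of eI hearts. Of 3 tested neural crest markers, Erbb3 rose (0.72) and Ednrb fell (-0.81). Lung and foregut markers had a median of -0.25, and none passed. The part of these cells in the collagen values was not tested.

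Genes that fold, process, degrade and bind collagen followed the same comparisons. Between genotypes 0 of the 42 tested genes passed, with a median of -0.05. Only Itga1, a collagen-binding integrin chain, had an unadjusted p under 0.05 (-0.26, limma adjusted p = 0.9997), beside 0.936% of all genes. Between the letters, 2 rose and 6 fell (19.0%, beside 10.3% of all genes), with a median of -0.13. Of 19 genes of folding and modification in the cell, 3 fell past the threshold, beside 5.82% of all genes. They were Crtap, of the prolyl 3-hydroxylation complex (-0.44), P3h3, of the prolyl 3-hydroxylase family (-0.70), and Fkbp14, a prolyl isomerase (-0.51). Serpinh1, the collagen chaperone, read 12.82 and 12.74 in eM hearts, against 12.50 to 12.60 in eI hearts (0.23, adjusted p = 0.12).

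Outside the cell, Lox, the cross-linking lysyl oxidase, fell. It read 6.26 in mutant 3 and 6.74 in wild-type 3, against 7.79 to 8.60 in the eI hearts, a difference of -1.70 (adjusted p = 0.018). Pcolce2, an enhancer of procollagen cleavage, rose (6.84 and 6.21, against 4.93 to 5.08; 1.504). Of the degradation genes, Mmp14, a membrane-bound collagenase, rose (0.61) and Ctsk, cathepsin K, fell (-0.86). Of the receptors, Itgb1, the shared beta 1 integrin chain, fell (-0.71), while the discoidin receptors Ddr1 and Ddr2 differed by 0.22 and -0.16 and did not pass.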

How the data were processed

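Levels were measured on Affymetrix Mouse430_2 arrays of heart RNA. The authors deposited log2 intensities, and the submitters' processing notes name RMA, which corrects background, normalizes arrays to each other and summarises probes. Neither version nor options are stated. Scanner files were not used, so detection above background could not be judged.

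Of 45101 probe sets, 64 controls were left out. The platform annotation named 1 gene for 34945, several for 932 (not used) and none for 9160. Symbols matched RefSeq of GRCm38.p6 by gene ID for 34741, with 0 changed. The brightest probe set per gene was tested when its mean lay outside the lowest 40%. limma 3.58.1 in R 4.3.3 (lmFit, eBayes, two-sided, Benjamini-Hochberg over all 13572 genes, threshold 0.05) compared genotypes with no covariate, letters with genotype as a term, and their interaction. The fits were tested on simulated arrays with independent noise of equal spread in every heart. Such arrays cannot show how the fits behave where a heart varies more than the others. Alternatives were other filters, scalings, probe sets, covariates and leaving out each heart.

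Named chains were those called, without overlap between genotypes, among the 8 largest differences by genotype or the 12 largest by letters, and partners of 1 molecule; the others were added to account for every member. List genes were up to 4 of smallest p per list and comparison, and all biosynthesis genes past the threshold; Actc1, Serpinh1, Ddr1, Ddr2, Kcnj8, Pdgfrb, Cnn1 and the untested cartilage genes were added after their values were seen. Members and lists were chosen with earlier results of these data known. Deviations from the genotype means correlated at 0.18, 0.36 and 0.74 between hearts of the same replicate number, for numbers 1, 2 and 3. Mutant 1 correlated more with wild-type 2 (0.47), and mutant 2 more with wild-type 1 (0.49). By this measure numbers 1 and 2 of the titles do not count as pairs, and number 3 is also the eM pair. No label names a shared litter or day. Where the labels do not say that arrays are separate animals, p-values measure the spread between these arrays. Figures were drawn with matplotlib 3.10.9.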

Additional observations from a re-analysis of the deposited data

Results flagged for a closer look

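Among the 4 eI hearts, a heart stood far from the other 3 at 2 of 36 chains by Dixon's test at the 95% level, where chance gives about 1 in 20. Col4a6 read 7.76 in mutant 1 and 7.69 in the others, and Col22a1 read 6.35 in mutant 2 and 6.24 to 6.25 in the others. Genotype groups of 3 were not examined in this way.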

How the results depend on the processing

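Between genotypes, 0 chains were called under every alternative run, and with the replicate block limma also called 0, with a median of -0.04; the block changed no other call. Over all genes, 0 were called except without mutant 2 (2 genes, 0 to 2 over the hearts left out). The chain median turned to 0.04 with array weights, 0.06 with Xist as a covariate and 0.03 in eI hearts alone, and ran from -0.08 to 0.03 over the hearts left out. Of the 8 chains of largest difference, directions turned at Col9a1 (0.092 with array weights, 0.030 in eI hearts alone), Col6a1 (0.075 with array weights) and Col14a1 (0.31 with array weights, 0.21 in eI hearts alone, 0.32 with Xist as a covariate). Leaving out hearts gave -1.04 to 0.18 for Col9a1, -0.33 to 0.016 for Col6a1 and -0.44 to 0.34 for Col14a1, above 0 without mutant 3. By letters, 6 chains and 1397 genes were called in the main setting, 11 and 2745 at a threshold of 0.10, 2 and 183 with Xist as a covariate, and 878 genes with no filter. At the same threshold there were 9 chains with trended and robust variances, array weights or no genotype term, 8 with the stricter filter, quantile normalization or the mean of probe sets, 7 with the probe set of largest variance, 6 with centred arrays and 5 with no filter. The 2 chains kept with Xist were Col2a1 and Col6a3. Leaving out hearts gave 0 to 10 chains (10 without wild-type 3, 3 without mutant 1, 0 without mutant 2 or 3), 0 to 1937 genes (1937 without wild-type 1, 790 without wild-type 3, 158 without mutant 1, 2 without mutant 2, 0 without mutant 3) and chain medians of -0.23 to 0.012. Col1a1 ran between -1.44 and 0.13, above 0 without mutant 3. A lone eM heart was then assumed to vary like the others. The median chain difference of the mutant effect in eM minus eI was -0.29 with no filter, -0.45 with the stricter filter that left out 60% and -0.27 with the mean of a gene's probe sets. The cause of these shifts was not tested.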
